A study of Saccharomyces cerevisiae with 12 samples.

Results

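Peroxins are the proteins that build peroxisomes, the membrane-bound organelles in which yeast carries out fatty acid oxidation and part of the glyoxylate cycle. The 32 genes described here encode 25 peroxins, 3 transporters of the peroxisomal membrane, 2 factors that share peroxisomes between mother and bud, and 2 transcription factors of peroxisomal genes. They were chosen by gene symbol, and all 32 were found among the 5449 genes tested, each with 1 probe set. RNA came from 2 strains of Saccharomyces cerevisiae of the CEN.PK laboratory background, grown in chemostats with ethanol as the limiting carbon source at a dilution rate of 0.1 per h. The null strain (KOY.VW101P) lacks all known hexose transporter genes, and the isogenic reference strain (KOY.PK2-1C83P) keeps them. The 4 groups were the null strain 20 min after a pulse of glucose, the null strain at steady state (0 min), the reference strain 20 min after the pulse and the reference strain at 0 min. Each group had 3 arrays from biological replicates, and each strain is a single named line. Precision is limited by how few arrays there are. The series asks which transcriptional responses to glucose need the sugar to be taken up.

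Proteins of the peroxisomal matrix are made in the cytosol and carried in by receptors. The receptor with its cargo binds a docking complex, the cargo is released, and the receptor is ubiquitinated and pulled back out by an ATPase. Another set of peroxins inserts membrane proteins, and others set the size and number of the organelles. In yeast, peroxisomes are few on glucose and are made in greater number on fatty acids, while growth on ethanol uses the peroxisomal steps of the glyoxylate cycle.

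The strain and time labels were checked first. Of the hexose transporter genes, HXT7, HXT5, HXT4, HXT3, HXT2 and HXT1 were within 0.25 log2 units of the lowest deposited value on all 6 null arrays and above that limit on all 6 reference arrays. MIG2 served as a check of time, in normalized log2 intensity. On reference replicates 1 and 3 it had 2.82 and 2.10 by label before the pulse, against 11.05 and 11.38 after. The null strain gave 3.43 and 4.29, against 12.84 and 12.91. Replicate 2 ran opposite, with 10.96 before against 2.07 after (reference), and 13.59 against 3.43 (null). FBP1 and ICL1 passed over time only in the reference strain. The arrays of replicate 2 lay with the opposite labelled time, also over the genes described here. On the reference array labelled 20 min replicate 2, 28 of the 32 genes were nearer to the mean of replicates 1 and 3 at 0 min than at 20 min, and on the one labelled 0 min replicate 2, 30 were nearer to 20 min. The counts were 27 for null 20 min replicate 2 and 26 for null 0 min replicate 2. No array was moved to another group. The results below therefore come from replicates 1 and 3, 8 arrays in all, and directions over time rest on the labels of these arrays. Values from all 12 arrays as labelled are given beside them. Values are log2 intensities after quantile normalization, differences are in log2 units with the SE of the fit, and rose, fell, higher and lower are used for genes that passed limma with a Benjamini-Hochberg adjusted p under 0.05 over all 5449 genes.

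**Figure D1:**
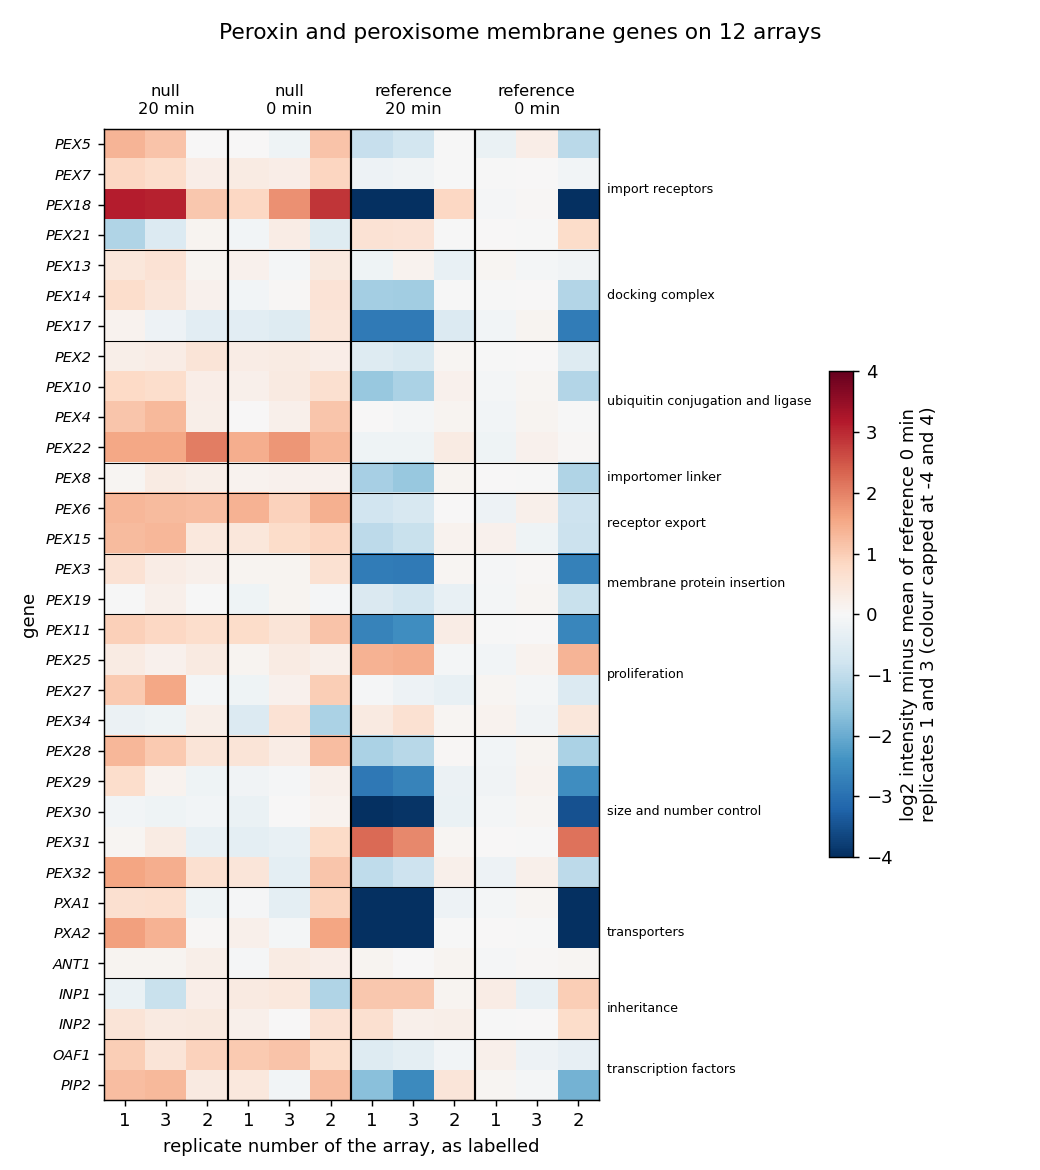
Each row is a gene, grouped by role, and each column an array, with replicates 1, 3 and 2 in each of the null 20 min, null 0 min, reference 20 min and reference 0 min groups; colour is the log2 intensity minus the mean of reference 0 min replicates 1 and 3, capped at -4 and 4. The reference 20 min replicates 1 and 3 are blue for most genes, and in both strains the replicate 2 column resembles the other labelled time.

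In the reference strain most of these genes fell after the glucose pulse, with PXA2, PEX18 and PXA1 showing the 3 largest falls. Of the 32 genes 19 fell, 3 rose and 10 did not pass. The share that changed, 68.8%, was near the 72.3% of all genes that did. By direction, 59.4% of these genes fell against 33.0% of all genes, and 9.38% rose against 39.3%. The median difference was -0.77 over the 32 genes and 0.13 over all genes. The SE of single genes ran from 0.08 to 0.36. Calls depended on the scaling: in the deposited values 2 genes rose and 26 fell, and with arrays centred on their medians 4 rose and 21 fell. The median over all genes was -0.38 as deposited and 0.11 with arrays centred. Shares of all genes called under these scalings are not given. PEX4, PEX22 and PEX27, which did not pass after quantile normalization, fell under both of these scalings. PEX7, PEX13, INP2 and OAF1 fell in the deposited values alone, and PEX21 and PEX34 rose with arrays centred alone. As deposited the falls of PEX6, PEX15 and PEX19 were over 1.5 times larger, and the rise of PEX31 was over 1.5 times smaller. With all 12 arrays as labelled, limma passed 0 of the 32 genes, 0 at an unadjusted p under 0.05, and 0% of all genes. All 22 genes that passed on 8 arrays kept their sign on 12, which adds no independent evidence, since the 12 arrays include the 8. For all 22 the difference within replicate 2 ran opposite to that within replicates 1 and 3.

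Most of these genes did not pass in the null strain, and those that did were mostly higher at 20 min. Of the 32 genes 13 rose (40.6%, against 12.9% of all genes), 1 fell (3.12%, against 14.7%) and 18 did not pass. In all 14 changed, where 27.5% of all genes did. The median difference was 0.45, against 0.04 over all genes. As deposited, without further normalization, 6 rose and 2 fell. The median there was 0.14 over the 32 genes and -0.13 over all genes, whose share of calls is not given. PEX7, PEX10, PEX4, PEX27, PEX28, PEX31 and PXA1 lost their call there, and PEX10, PEX27 and PEX31 also lost it with arrays centred. PEX3, PEX11 and PIP2 rose with arrays centred alone. Without null 0 min replicate 3 only 6 genes passed, without null 20 min replicate 1 only 5 and without null 20 min replicate 3 only 8. PEX5, PEX14, PEX4 and PEX27 were the 4 that passed with each of the 8 arrays left out in turn, of which PEX4 and PEX27 did not pass as deposited. With all 12 arrays as labelled limma passed 0 genes, 0 at an unadjusted p under 0.05, and for all 14 the difference within replicate 2 ran opposite to that within replicates 1 and 3.

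An interaction term compared the responses of the strains. It passed for 26 of the 32 genes (81.2%, against 66.3% of all genes). In 22 the response of the null strain lay above that of the reference strain (68.8%, against 32.4%), and in 4 below it (12.5%, against 33.9%). With 12 arrays as labelled limma passed 0, and 0 at an unadjusted p under 0.05. Of the 19 genes that fell in the reference strain, 9 rose in the null strain: PEX5, PEX18, PEX14, PEX10, PEX15, PEX28, PEX32, PXA1 and PXA2. Over the 32 genes 40.6% rose in the null strain, and over all genes 12.9% did. The share of all genes with opposite calls is not given, so the count is not read as a trait of these genes. In the deposited values PEX10, PEX28 and PXA1 no longer passed in the null strain. PEX31 rose in both strains with quantile normalization, and in the null strain its sign turned to -0.22 in the deposited values. PEX13, PEX22, PEX34, ANT1, INP2 and OAF1 passed over time in neither strain after quantile normalization. PEX22 in the reference strain was at -0.16 there, but at -2.59 as deposited and -2.09 with arrays centred. Its interaction was 0.11, against 1.99 and 1.73, and passed in the last 2 settings. Across the 32 genes, which are not independent replicates, the differences in the 2 strains had a Pearson correlation of -0.487 and a Spearman correlation of -0.441. These points share arrays and a normalization.

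**Figure D2:**
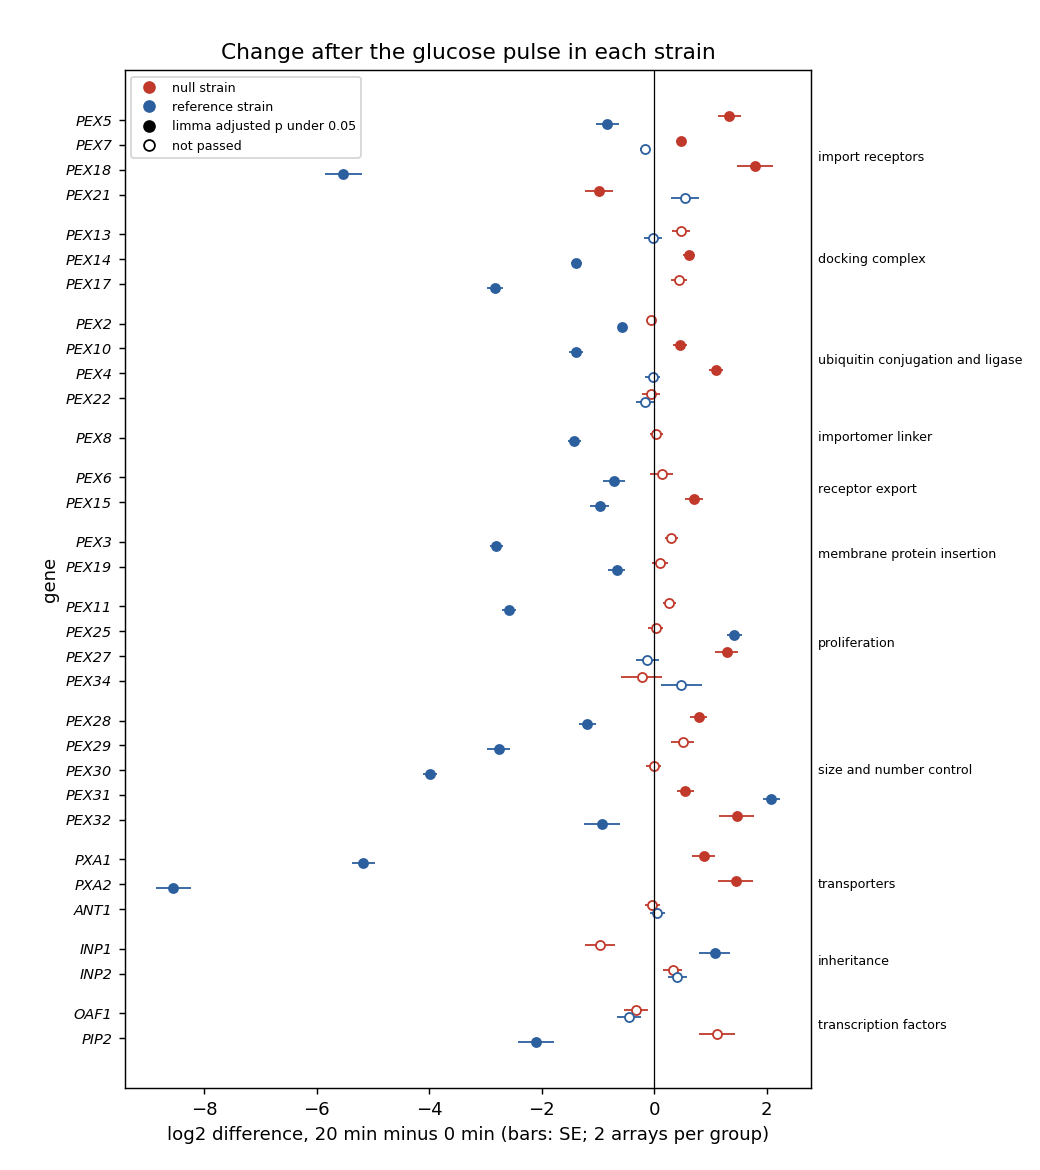
Log2 difference between 20 and 0 min for each gene in the null strain (red) and the reference strain (blue), with SE bars from limma on 2 arrays per group; filled points passed the adjusted p of 0.05. The reference values reach -8.55 for PXA2 and -5.53 for PEX18, while the null values lie between -0.98 and 1.79.

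The transporter genes of the peroxisomal membrane held the largest difference in the reference strain. PXA1 and PXA2 encode the partners that form the ABC transporter that brings long-chain acyl-CoA into the peroxisome. PXA2 had 13.32 and 13.06 in the null strain at 20 min, 11.89 and 11.60 in the null strain at 0 min, 3.58 and 2.67 in the reference strain at 20 min, and 11.71 and 11.65 in the reference strain at 0 min. The reference 20 min arrays stood far below the 3 other groups, near the lowest normalized value of 2.06, so the size of the fall is not well determined. In the reference strain PXA2 fell by 8.55 (SE 0.31, limma adjusted p = 1.66e-05), and in the null strain it rose by 1.45 (SE 0.31, adjusted p = 0.0237).

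PXA1 had 13.92 and 13.98 in the null strain at 20 min, 13.24 and 12.90 in the null strain at 0 min, 8.38 and 7.86 in the reference strain at 20 min, and 13.23 and 13.36 in the reference strain at 0 min. The groups did not overlap over time in either strain. It fell by 5.17 (SE 0.21, limma adjusted p = 2.18e-05) in the reference strain and rose by 0.88 (SE 0.21, adjusted p = 0.0317) in the null strain. Both genes had the replicate 2 arrays the other way round, with PXA1 at 13.12 on null 20 min replicate 2 against 14.19 on null 0 min replicate 2, and at 13.10 on reference 20 min replicate 2 against 7.77 on reference 0 min replicate 2. ANT1, the carrier that brings ATP into the peroxisome for the activation of medium-chain fatty acids, passed in none of the 5 comparisons. ANT1 had 11.93 and 11.93 in the null strain at 20 min, 11.79 and 12.14 in the null strain at 0 min, 11.93 and 11.83 in the reference strain at 20 min, and 11.77 and 11.88 in the reference strain at 0 min. It lay between 11.76 and 12.14 on all 12 arrays, and its difference over time was -0.03 (SE 0.14) in the null strain and 0.06 (SE 0.14) in the reference strain, with a sign that depended on the scaling in both. The difference between the responses of ANT1 was -0.09 (SE 0.20).

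Among the import receptors the paralogous co-receptors PEX18 and PEX21 went apart. Both help PEX7, the receptor for proteins with the type 2 targeting signal. PEX18 had 11.14 and 11.10 in the null strain at 20 min, 8.83 and 9.82 in the null strain at 0 min, 2.32 and 2.65 in the reference strain at 20 min, and 7.97 and 8.05 in the reference strain at 0 min. The reference 20 min values were again close to the lowest value, while the null 20 min values were the highest of the 4 groups. PEX18 fell by 5.53 (SE 0.33, limma adjusted p = 6.27e-05) in the reference strain and rose by 1.79 (SE 0.33, adjusted p = 0.0157) in the null strain. PEX21 had 10.96 and 11.61 in the null strain at 20 min, 12.05 and 12.47 in the null strain at 0 min, 12.74 and 12.70 in the reference strain at 20 min, and 12.19 and 12.14 in the reference strain at 0 min. It fell by 0.98 (SE 0.25, limma adjusted p = 0.0385) in the null strain and did not pass in the reference strain, at 0.55 (SE 0.25, adjusted p = 0.0913). The interaction passed for both, at 7.32 (SE 0.46) for PEX18 and -1.53 (SE 0.35) for PEX21.

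PEX5, the receptor for the more common type 1 signal, had 12.64 and 12.40 in the null strain at 20 min, 11.27 and 11.09 in the null strain at 0 min, 10.33 and 10.54 in the reference strain at 20 min, and 11.00 and 11.53 in the reference strain at 0 min. The times did not overlap in either strain. It rose by 1.34 (SE 0.21, limma adjusted p = 0.0102) in the null strain and fell by 0.83 (SE 0.21, adjusted p = 0.0137) in the reference strain. That fall did not pass with every array left out in turn. PEX7 rose by 0.47 (SE 0.09, limma adjusted p = 0.0160) in the null strain and stood at -0.17 (SE 0.09, adjusted p = 0.133) in the reference strain.

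The docking complex, to which loaded receptors bind, had 2 of 3 genes lower after the pulse in the reference strain. PEX17 had 6.42 and 6.43 in the reference strain at 20 min against 9.15 and 9.36 at 0 min, and fell by 2.83 (SE 0.14). The difference for PEX17 was -5.22 as deposited and -4.72 with arrays centred. PEX14, the first docking site of both receptors, had 12.24 and 12.04 in the null strain at 20 min, 11.45 and 11.60 in the null strain at 0 min, 10.18 and 10.15 in the reference strain at 20 min, and 11.53 and 11.56 in the reference strain at 0 min. In the reference strain PEX14 fell by 1.38 (SE 0.11, limma adjusted p = 0.000147), and in the null strain it rose by 0.62 (SE 0.11, adjusted p = 0.0131). PEX13, the membrane partner of PEX14, passed over time in neither strain, at 0.47 (SE 0.16) in the null strain and -0.02 (SE 0.16) in the reference strain, and the values of its 2 times overlapped in the reference strain. PEX13 had 11.04 and 11.18 in the null strain at 20 min, 10.77 and 10.51 in the null strain at 0 min, 10.40 and 10.74 in the reference strain at 20 min, and 10.66 and 10.51 in the reference strain at 0 min. PEX8, which links the docking complex to the ubiquitin ligases from inside the organelle, had 9.78 and 9.61 in the reference strain at 20 min against 11.14 and 11.09 at 0 min, a fall of 1.42 (SE 0.12). Its difference in the null strain was 0.04 (SE 0.12).

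Of the genes of receptor recycling, PEX10, a RING ubiquitin ligase, had 10.93 and 10.84 in the null strain at 20 min, 10.35 and 10.51 in the null strain at 0 min, 8.62 and 8.86 in the reference strain at 20 min, and 10.05 and 10.21 in the reference strain at 0 min. It fell by 1.40 (SE 0.13, limma adjusted p = 0.000275) in the reference strain and rose by 0.46 (SE 0.13, adjusted p = 0.0487) in the null strain. Its difference in the reference strain was -2.72 as deposited and -2.23 with arrays centred. Another RING ligase gene, PEX2, fell by 0.56 (SE 0.08) in the reference strain, a call that was lost with arrays centred on their medians. PEX4, the ubiquitin-conjugating enzyme, had 9.41 and 9.61 in the null strain at 20 min against 8.31 and 8.51 at 0 min, and rose by 1.10 (SE 0.13, limma adjusted p = 0.00545). That value was 0.27 as deposited, where it did not pass, and 0.51 with arrays centred. PEX4 in the reference strain was at -0.03 (SE 0.13) after quantile normalization, where the times overlapped. It fell as deposited, at -2.13, and with arrays centred, at -1.64.

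PEX6 encodes an ATPase of the export complex and PEX15 its membrane anchor. Both fell in the reference strain, PEX6 by 0.71 (SE 0.20, limma adjusted p = 0.0222) and PEX15 by 0.97 (SE 0.17, adjusted p = 0.00317). The fall of PEX6 did not pass with every array left out in turn. PEX15 had 12.09 and 12.15 in the null strain at 20 min, 11.27 and 11.55 in the null strain at 0 min, 9.75 and 9.93 in the reference strain at 20 min, and 10.99 and 10.63 in the reference strain at 0 min. In the null strain PEX15 rose by 0.71 (SE 0.17, limma adjusted p = 0.0309), and PEX6 was at 0.14 (SE 0.20).

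Of the pair that inserts membrane proteins, PEX3, the membrane receptor, had 8.86 and 8.82 in the reference strain at 20 min against 11.59 and 11.70 at 0 min, a fall of 2.81 (SE 0.12, limma adjusted p = 2.43e-05). PEX19, the soluble chaperone that binds it, fell by 0.66 (SE 0.15, limma adjusted p = 0.00947), a call lost without reference 20 min replicate 3. In the null strain PEX3 was at 0.31 (SE 0.12) and PEX19 at 0.10 (SE 0.15), and neither passed. The interaction passed for both, though for PEX19 not with every array left out in turn.

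Genes of peroxisome proliferation did not move together. PEX11, which elongates and helps divide the organelle, had 14.07 and 13.93 in the null strain at 20 min, 13.84 and 13.62 in the null strain at 0 min, 10.44 and 10.62 in the reference strain at 20 min, and 13.09 and 13.13 in the reference strain at 0 min. It fell by 2.58 (SE 0.12, limma adjusted p = 3.2e-05) in the reference strain and did not pass in the null strain, at 0.27 (SE 0.12). PEX25, a membrane protein related to PEX11, went the other way. It had 12.31 and 12.36 in the reference strain at 20 min against 10.79 and 11.04 at 0 min, a rise of 1.42 (SE 0.13, limma adjusted p = 0.000325). PEX25 in the null strain was at 0.03 (SE 0.13). Its paralog PEX27 had 8.85 and 9.33 in the null strain at 20 min against 7.63 and 7.97 at 0 min, a rise of 1.30 (SE 0.20). The rise of PEX27 did not pass as deposited, at 0.31, or with arrays centred, at 0.55. PEX27 in the reference strain was at -0.12 (SE 0.20) after quantile normalization, and it fell as deposited, at -2.71, and with arrays centred, at -2.21. PEX34, which acts with the PEX11 family in setting peroxisome number, passed in none of the 5 comparisons after quantile normalization. PEX34 had 11.46 and 11.53 in the null strain at 20 min, 11.16 and 12.28 in the null strain at 0 min, 12.06 and 12.30 in the reference strain at 20 min, and 11.82 and 11.56 in the reference strain at 0 min. Its replicates at 0 min in the null strain lay further apart than any group means.

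The genes that control peroxisome size and number, PEX28 to PEX32, encode membrane proteins of the endoplasmic reticulum and of its contacts with peroxisomes. PEX30, PEX31 and PEX32 are related to each other, and the first pair went opposite ways in the reference strain. PEX30 had 7.51 and 7.65 in the reference strain at 20 min against 11.50 and 11.64 at 0 min, and fell by 3.99 (SE 0.13, limma adjusted p = 1.41e-05). PEX31 had 11.23 and 10.88 in the reference strain at 20 min against 8.99 and 8.95 at 0 min, and rose by 2.09 (SE 0.15, adjusted p = 0.000126). No array of either gene at 1 time reached the range of the other time. In the null strain PEX30 was at -0.01 (SE 0.13), with overlapping times. PEX31 was at 0.55 (SE 0.15, limma adjusted p = 0.0478).

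PEX32 had 11.54 and 11.42 in the null strain at 20 min, 10.46 and 9.57 in the null strain at 0 min, 8.94 and 9.12 in the reference strain at 20 min, and 9.75 and 10.18 in the reference strain at 0 min. It rose by 1.47 (SE 0.31, limma adjusted p = 0.0245) in the null strain and fell by 0.93 (SE 0.31, adjusted p = 0.0408) in the reference strain. Its values at 0 min differed between replicates more than those at 20 min, and neither call passed with every array left out in turn. PEX32 in the reference strain was at -2.11 as deposited and -1.61 with arrays centred. PEX28 rose by 0.79 (SE 0.15) in the null strain, with 11.29 and 11.03 at 20 min against 10.47 and 10.27 at 0 min. In the reference strain PEX28 had 8.71 and 8.86 at 20 min against 9.86 and 10.07 at 0 min, a fall of 1.19 (SE 0.15), and the difference was -2.50 as deposited and -2.01 with arrays centred. PEX29 fell by 2.76 (SE 0.21) in the reference strain and did not pass in the null strain, at 0.51 (SE 0.21). The difference for PEX29 in the reference strain was -5.06 as deposited and -4.56 with arrays centred.

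**Figure D3:**
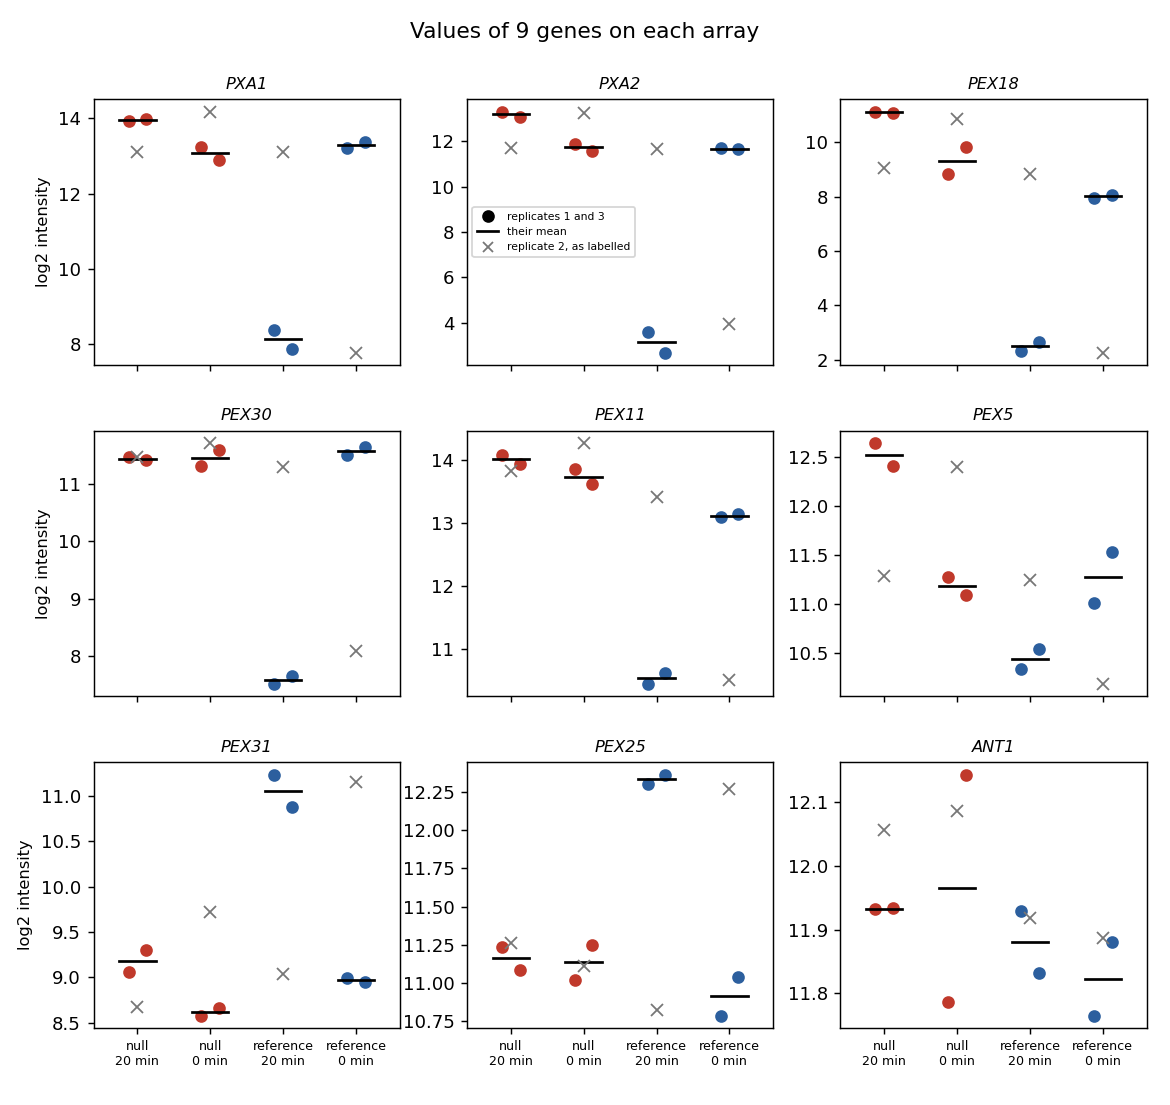
Log2 intensity of PXA1, PXA2, PEX18, PEX30, PEX11, PEX5, PEX31, PEX25 and ANT1 in the null 20 min, null 0 min, reference 20 min and reference 0 min groups, with filled points for replicates 1 and 3, a bar for their mean and a cross for replicate 2 as labelled; each panel has its own axis range. PXA2 and PEX18 come close to the lowest value of 2.06 in the reference strain at 20 min, PEX31 and PEX25 are highest there, and ANT1 spans less than 0.4 log2 units.

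The remaining genes act in inheritance and transcription. INP1, which holds peroxisomes at the mother cortex, had 8.10 and 7.46 in the null strain at 20 min, 8.72 and 8.77 in the null strain at 0 min, 9.44 and 9.42 in the reference strain at 20 min, and 8.65 and 8.06 in the reference strain at 0 min. It was at -0.97 (SE 0.27, limma adjusted p = 0.0516) in the null strain, and in the reference strain it rose by 1.08 (SE 0.27, adjusted p = 0.0147), a sign that turned to -0.36 in the deposited values. That call was also lost with arrays left out and with arrays centred, and in the null strain INP1 fell under both other scalings, at -1.77 as deposited and -1.53 with arrays centred. INP2, the receptor through which the myosin motor carries peroxisomes into the bud, passed in none of the 5 comparisons after quantile normalization. INP2 had 9.65 and 9.50 in the null strain at 20 min, 9.35 and 9.14 in the null strain at 0 min, 9.76 and 9.32 in the reference strain at 20 min, and 9.13 and 9.14 in the reference strain at 0 min. PIP2 and OAF1 encode the partners that activate genes of peroxisomes on fatty acids. PIP2 had 12.54 and 12.61 in the null strain at 20 min, 11.71 and 11.20 in the null strain at 0 min, 9.63 and 8.77 in the reference strain at 20 min, and 11.39 and 11.22 in the reference strain at 0 min. In the reference strain PIP2 fell by 2.10 (SE 0.32, limma adjusted p = 0.00196), and in the null strain it stood at 1.12 (SE 0.32, adjusted p = 0.0525). OAF1 had 12.05 and 11.58 in the null strain at 20 min, 12.10 and 12.19 in the null strain at 0 min, 10.53 and 10.68 in the reference strain at 20 min, and 11.27 and 10.84 in the reference strain at 0 min. It did not pass over time, at -0.33 (SE 0.21) in the null strain and -0.45 (SE 0.21) in the reference strain.

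After the pulse the strains differed in nearly all of these genes. At 20 min 25 of the 32 were higher in the null strain (78.1%, against 36.5% of all genes), 4 were lower (12.5%, against 38.8%) and 3 did not pass. In all 90.6% differed, where 75.4% of all genes did. These values use the same 20 min arrays as the comparisons over time and add no independent evidence. The 4 lower genes were PEX21, PEX25, PEX31 and INP1, at -1.43, -1.17, -1.88 and -1.65, and those that did not pass were PEX34, ANT1 and INP2. In the deposited values PEX17 was at 4.37, PEX4 at 2.24, PEX22 at 2.95, PEX27 at 2.74 and PEX29 at 4.85, each over 1.5 times the value after quantile normalization, and no call changed. With arrays centred PEX34 was lower in the null strain as well, at -0.79. PXA2 was higher in the null strain by 10.07 (SE 0.31), PEX18 by 8.64 (SE 0.33) and PXA1 by 5.83 (SE 0.21). With all 12 arrays as labelled limma passed 2 of the 32 genes, PEX22 and PEX6, both with higher null values. Over all genes the same fit gave 0.642% in either direction and 0.367% higher. Of the 32 genes 26 had an unadjusted p under 0.05 in that fit, and the share of all genes under that limit is not given.

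Before the pulse the strains differed little. At 0 min 1 of the 32 genes passed (3.12%, against 1.28% of all genes). It was higher, as were 0.881% of all genes, and 0 were lower, against 0.404%. Of the 32, 10 had an unadjusted p under 0.05, and the share of all genes under that limit is not given. The gene that passed was PEX22, the membrane anchor of the PEX4 enzyme, which was higher in the null strain by 1.61 (SE 0.16, limma adjusted p = 0.0170). PEX22 had 9.47 and 9.80 in the null strain at 0 min against 7.87 and 8.18 in the reference strain, and 9.58 and 9.57 in the null strain at 20 min against 7.86 and 7.86 in the reference strain. The PEX22 call at 0 min also passed by limma with all 12 arrays as labelled (adjusted p = 0.0168), where 0.257% of all genes were higher. On the 8 arrays it was lost in the deposited values and with any 1 array left out except null 0 min replicate 1, so 7 of the 8 single arrays could end it. The median over the 32 genes at 0 min was 0.11, against 0.00 over all genes. PXA2 was at 0.06 (SE 0.31) and PXA1 at -0.23 (SE 0.21), and the values of the 2 strains overlapped for both. PEX18, at 1.32 (SE 0.33), did not pass (adjusted p = 0.178).

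**Figure D4:**
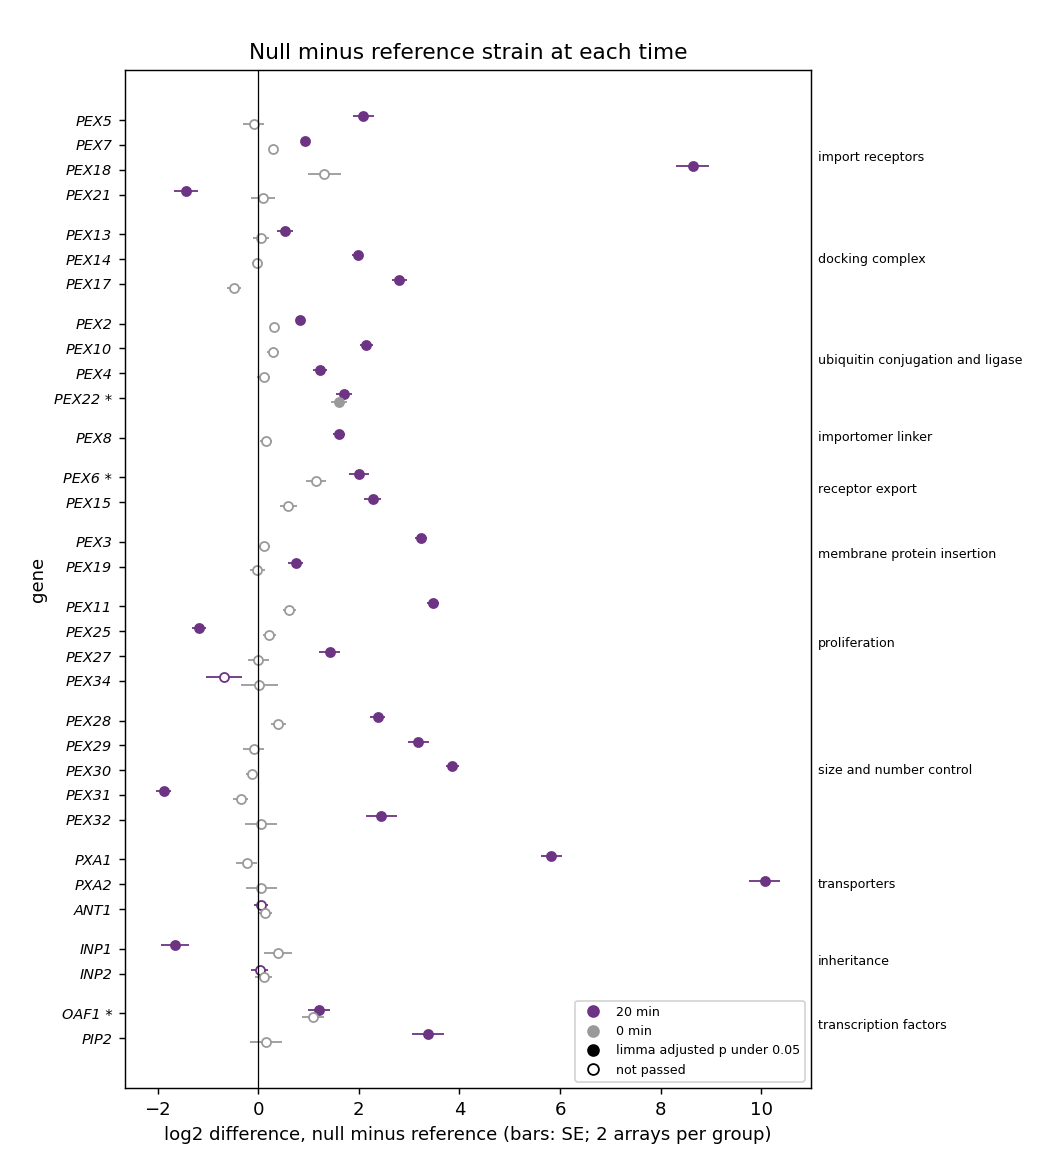
Log2 difference between the null and the reference strain for each gene at 20 min (purple) and at 0 min (grey), with SE bars from limma on 2 arrays per group; filled points passed the adjusted p of 0.05, and asterisks mark PEX22 and OAF1 on chromosome I and PEX6 on chromosome XIV. At 0 min only PEX22 passed, at 1.61, and at 20 min the differences ran from -1.88 for PEX31 to 10.07 for PXA2.

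A comparison of the strains over both times does not depend on the time labels. For 10 of the 32 genes (31.2%) all 6 null arrays lay above all 6 reference arrays, as they did for 5.51% of all genes, and for 0 of the 32 all lay below (3.36% of all genes). The 10 genes were PEX7, PEX2, PEX10, PEX22, PEX6, PEX15, PEX3, PEX11, PEX28 and OAF1. PEX22 had 9.34 to 10.06 on the null arrays and 7.86 to 8.37 on the reference arrays, PEX6 had 11.50 to 12.01 and 9.77 to 10.78, and OAF1 had 11.58 to 12.19 and 10.53 to 11.27. The count was 7 in the deposited values, where PEX10, PEX22 and PEX3 overlapped and 4.06% of all genes lay above. It was 11 with arrays centred, which added PEX8, and 6.59% of all genes lay above there. For PEX3 and PEX10 the gap between the strains was under 0.05 log2 units. The ranges use the same arrays as the comparisons above and add no independent evidence. Where a gene fell in the reference strain alone, only a small excess at 0 min is needed for such a gap. At 0 min PEX3 was at 0.12 and PEX10 at 0.30, while PEX22, PEX6 and OAF1 were at 1.61, 1.15 and 1.09. No test was made on these ranges.

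PEX22, OAF1 and PEX6, which had the widest gaps between the strains, lay among genes that mostly had positive strain differences at 0 min. PEX22 and OAF1 are close neighbours on chromosome I, whose 76 genes with a mean log2 intensity above 6 had a median difference between strains of 0.98 at 0 min and 0.72 at 20 min. Over all 5100 such genes the medians were 0.00 and -0.08. Within 4 places 8 genes were measured around each. At 0 min all 8 differences were positive in both cases, of which 1 passed around PEX22 and 3 around OAF1. These sets overlap: each holds the other gene, and both hold GPB2, ACS1, FLC2 and AIM2. AIM2 passed in both sets, and PEX22 itself was among the 3 around OAF1. At 20 min 5 of 8 were positive around PEX22 and 6 of 8 around OAF1, and the PEX22 neighbours ECM1, at -2.89, and CNE1, at -1.22, were lower in the null strain. OAF1 itself was at 1.09 (SE 0.21, limma adjusted p = 0.114) at 0 min and higher by 1.21 (SE 0.21, adjusted p = 0.00328) at 20 min. PEX6 lies on chromosome XIV, whose genes above the same intensity limit had a median difference of 0.00 at 0 min and -0.26 at 20 min. Among the genes within 4 places of PEX6, 6 were measured. All 6 had a positive difference at 0 min and 3 of them passed, RPD3, PFA3 and FIG4. Of the 6, MDJ2 lay below the intensity limit, with a mean of 5.00. PEX6 was at 1.15 (SE 0.20, adjusted p = 0.0900) at 0 min. The part of the neighbourhood in these differences was not tested. PEX2 is the gene with a deleted transporter gene, HXT8, within 4 places, and it did not pass at 0 min, at 0.31 (SE 0.08, adjusted p = 0.194). Of its 8 measured neighbours, which include the deleted HXT8 itself, 3 had a positive difference at 0 min. Over the 6 with a mean log2 intensity above 6 the median at 0 min was 0.47. Of the 8, 2 passed at 0 min, IMA5 at -4.55, with a mean log2 intensity of 3.77, and YJL213W at 2.85.

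The enzymes that peroxins import, and the factors that divide or degrade peroxisomes, were compared on the same arrays. Of 20 genes of peroxisomal matrix enzymes and partner proteins 16 fell in the reference strain and 3 rose, where 33.0% of all genes fell and 39.3% rose. Their median was -4.83, against -0.77 for the genes described here. POX1, the acyl-CoA oxidase, fell by 6.70 (SE 0.31). IDP3, the peroxisomal isocitrate dehydrogenase, fell by 6.28 (SE 0.25). CTA1, the peroxisomal catalase, fell by 4.66 (SE 0.16). In the null strain 4 of these 20 rose and 2 fell, where 12.9% of all genes rose and 14.7% fell. Of 8 division and pexophagy genes 7 fell in the reference strain and 1 rose, against the same shares of all genes, and none passed in the null strain, where 1 had an unadjusted p under 0.05 by limma. ATG36, the receptor that marks peroxisomes for autophagy, fell by 3.70 (SE 0.16), and DNM1, the dynamin of organelle division, by 2.58 (SE 0.14). ADR1, an activator of peroxisomal and ethanol genes, had 12.23 and 12.23 in the null strain at 20 min, 12.67 and 11.99 in the null strain at 0 min, 6.19 and 7.62 in the reference strain at 20 min, and 12.08 and 12.46 in the reference strain at 0 min. ADR1 fell by 5.36 (SE 0.50) in the reference strain and was at -0.10 (SE 0.50) in the null strain. It had the largest fall of the 3 regulators compared. OAF3 fell by 0.62 and SNF1 by 0.75 in the reference strain, the latter not passing with arrays centred. In the null strain OAF3 was at -0.20 and SNF1 at 0.29, and neither passed.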

How the data were processed

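RNA from the 4 groups was measured on Affymetrix arrays, with biotinylated cRNA made from 5 ug of total RNA, per the labels' protocols. In the table that the authors deposited, each probe set has a log2 intensity on every array, a scale read from the values. No source used here names their software. Of 10928 probe sets, 5498 matched an S. cerevisiae gene by identifier (RefSeq R64), and the probe set with the highest mean was kept for each of 5449 genes. The array medians spanned 0.558 log2 units, so the 12 arrays were quantile normalized.

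limma 3.58.1 (R 4.3.3) fitted a mean for each of the 4 groups, moderated the variances by empirical Bayes and adjusted p over all genes by Benjamini-Hochberg. The residual degrees of freedom were 4 for 8 arrays and 8 for 12. The 32 genes, the background lists, the roles and the choice of replicates 1 and 3 were made with earlier results of these data known, and the neighbour and strain range comparisons, with the latter under other scalings, after the values were seen. Genes were named by role, with per-array values for the 3 largest differences per comparison, for genes called in opposite directions in the 2 strains and for examples that did not pass, and some others were added after their values were seen. The main fit did not pair the arrays by replicate number. Deviations from the group means correlated at -0.294 to 0.081 on the 8 arrays. With 2 arrays per group replicates 1 and 3 give the same correlations, so these values cannot exclude a pairing.

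On simulated data for the reference strain comparison with 8 arrays and 5449 genes, the fit recovered 32 of 67 genes given a change of 1 log2 unit, 57 of 67 given 2 and 65 of 66 given 4. It made 16 false calls. Only 200 genes were changed there, in the reference 20 min group alone, with independent normal noise. In the real comparison 72.3% of all genes passed, so these counts do not give the error rate in these data. The alternatives changed the scaling, the choice of probe set, the filter on dim genes, the variance model, array weights, the threshold, the replicate block or the arrays used. Plots used Python 3.11.15 and matplotlib 3.10.9. The planned search for promoter motifs was not run, and no sequences are shown.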

Additional observations from a re-analysis of the deposited data

Results flagged for a closer look

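The response to glucose differed between the strains, by the limma test of the interaction, for 26 of the 32 genes. The values are log2 differences, the change in the null strain minus the change in the reference strain, and their adjusted p did not exceed 0.0435. Import and docking genes had 2.17 (PEX5), 0.64 (PEX7), 7.32 (PEX18), -1.53 (PEX21), 2.00 (PEX14), 3.28 (PEX17) and 1.46 (PEX8). Recycling genes had 0.52 (PEX2), 1.85 (PEX10), 1.13 (PEX4), 0.85 (PEX6) and 1.68 (PEX15). Membrane protein insertion had 3.11 (PEX3) and 0.77 (PEX19), and proliferation genes had 2.85 (PEX11), -1.40 (PEX25) and 1.42 (PEX27). Genes of size and number control had 1.98 (PEX28), 3.27 (PEX29), 3.98 (PEX30), -1.53 (PEX31) and 2.40 (PEX32). The transporter genes had 6.05 (PXA1) and 10.00 (PXA2), INP1 had -2.04 and PIP2 had 3.22. With all 12 arrays as labelled none of these passed, 0 at an unadjusted p under 0.05, and all 26 kept their sign. With the deposited values PEX4 was at 2.40, PEX27 at 3.02, PEX10 at 2.94, PEX28 at 3.09, PEX29 at 5.07 and PEX6 at 1.45, all over 1.5 times larger, and PEX22 and PEX13 passed as well. With arrays centred PEX22 passed and PEX2 did not. PEX6 and PEX19 did not pass with every array left out in turn. At an adjusted p under 0.01 PEX21, PEX2, PEX6 and PEX19 did not pass. The sizes for PXA2 and PEX18 are uncertain, since both lay near the lowest value in the reference strain at 20 min.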

How the results depend on the processing

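Counts of the 32 genes that passed are given for the reference strain over time, the null strain over time, the interaction, the strains at 20 min and the strains at 0 min. They were 22, 14, 26, 29 and 1 on 8 arrays. Shares of all genes on the 8 arrays are given above, and none are given for the alternatives below. With 12 arrays as labelled they were 0, 0, 0, 2 and 1, where the replicate 2 arrays lie with the other labelled time. With array weights on 12 arrays they were 24, 13, 26, 30 and 3. In the null strain the count fell to 8 as deposited and to 1 at an adjusted p under 0.01. For the strains at 0 min the count was 0 as deposited, 0 at an adjusted p under 0.01, 2 without dim genes and 3 with a trended, robust variance; the cause was not tested. Leaving out 1 array at a time gave 18 to 23, 5 to 11, 24 to 26, 28 to 30 and 0 to 2. The replicate block on 8 arrays gave 22, 13, 25, 29 and 1, so it moved no count by over 1.5 times, and it ended the calls of PEX32 in the reference strain, of PEX10, PEX15 and PEX31 in the null strain and of PEX6 in the interaction. In the deposited values 8 signs turned over time. Of these, 3 belonged to values that passed in 1 of the scalings, INP1 at -0.36 and INP2 at -0.72 in the reference strain and PEX31 at -0.22 in the null strain. The others, ANT1 in the reference strain and PEX17, PEX8, PEX25 and INP2 in the null strain, passed in neither. In the reference strain 7 genes passed as deposited but not after quantile normalization and 1 did the reverse, and with arrays centred these counts were 5 and 2. The median change of all genes in the reference strain was -0.38 as deposited and 0.13 after quantile normalization, and the median of the 32 genes relative to it was -1.53 and -0.90. Apart from INP1 in the reference strain and PEX31 in the null strain, no value passing after quantile normalization changed sign under any alternative. PEX7 in the reference strain, which passed as deposited at -0.47, was at 0.03 with arrays centred, where it did not pass.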
